A study of Mus musculus with 6 samples.

Results

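Serpinf1, the thrombospondin genes Thbs1, Thbs2 and Thbs3, Vash1 and Adamts1 encode secreted angiogenesis inhibitors and proteins related to them, and they were followed here in cells sorted from tumors with and without knockdown of HIF-1α. These 6 genes of the 22880 in the deposited table were selected on the measured difference between the groups, with Serpinf1 known to be the only gene higher at an adjusted p-value under 0.05 in limma and with Thbs2 known to have been picked by the study from these libraries. Their differences between Mock and HIF-1α-KD cells are therefore a description, and no test of that difference is drawn from them. All 6 genes were found in the table, and 5 of them passed the filter on low counts that left 12014 genes. Vash1 did not pass it and is given by its reads.

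The cells were MC-38GFP, a GFP-expressing line derived from a mouse colon adenocarcinoma, injected into the cecum wall of C57BL/6 J mice. Both groups carried the pLKO.1-puro vector, the Mock group as the control and the HIF-1α-KD group with HIF-1α knocked down, called knockdown where values follow. Neither group had been passaged in vivo beforehand. Viable GFP+ cells lacking CD45, the pan-leukocyte antigen, and CD31, an endothelial antigen, were sorted from the tumors, and polyadenylated RNA was sequenced in 3 libraries per group. The age of the mice, the number of clones behind each line and whether a library came from a single tumor are not given in the sources used here, so the spread between libraries may be partly technical. The comparison asks which factors made by the tumor cells differ when the response to hypoxia is weakened.

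Blood vessel growth is set by a balance of stimulators such as VEGF and of secreted inhibitors. Pigment epithelium-derived factor, the product of Serpinf1, belongs to the serpin family without inhibiting proteases, and it acts on endothelial cells through several surface receptors. Thrombospondins 1 and 2 are trimeric matrix glycoproteins whose type 1 repeats bind CD36 on endothelial cells, whereas thrombospondin 3 forms pentamers and lacks these repeats. Adamts1 encodes a secreted metalloprotease with thrombospondin motifs that cleaves matrix proteoglycans, and Vash1 encodes vasohibin 1, best known from endothelial cells. HIF-1α is the subunit of the transcription factor HIF-1 that is degraded in oxygenated cells, and HIF-1 binds DNA at short sites with the core ACGTG or GCGTG.

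Because HIF-1 binds this core, the bases upstream of the members' start sites are shown for the member that was higher, for the most abundant thrombospondin and for the other member with a match. RefSeq promoter windows of the mouse build GRCm38.p6, from 250 bases before to 50 bases after the start of the gene, were found for 5 of the 6 members, all but Thbs1. The sequences below are the stretches of these windows that lie before the annotated gene, written 5′ to 3′ on the strand of the gene. Capitals mark a match to ACGTG or GCGTG, searched on both strands. They cover 172 bases for Serpinf1 (chr11:75422702-75422873, minus strand), 250 bases for Adamts1 (chr16:85803114-85803363, minus strand) and 250 bases for Thbs2 (chr17:14694263-14694512, minus strand).
Serpinf1: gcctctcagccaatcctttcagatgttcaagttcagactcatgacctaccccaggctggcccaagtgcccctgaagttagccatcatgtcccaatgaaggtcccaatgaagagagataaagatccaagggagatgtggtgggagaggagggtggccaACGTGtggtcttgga
Adamts1: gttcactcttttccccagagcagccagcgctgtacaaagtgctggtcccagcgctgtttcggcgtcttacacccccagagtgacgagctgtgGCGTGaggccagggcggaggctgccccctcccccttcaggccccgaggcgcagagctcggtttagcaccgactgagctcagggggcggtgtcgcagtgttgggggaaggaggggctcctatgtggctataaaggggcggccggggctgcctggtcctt
Thbs2: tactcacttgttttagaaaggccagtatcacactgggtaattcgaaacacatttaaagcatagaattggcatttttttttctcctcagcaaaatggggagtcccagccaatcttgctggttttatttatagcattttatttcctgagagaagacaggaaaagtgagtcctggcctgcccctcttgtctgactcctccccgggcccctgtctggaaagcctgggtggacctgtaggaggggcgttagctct
Positions count from the RefSeq start, which for Serpinf1 lies inside the annotated gene, with 78 bases between the last base printed and that start. Serpinf1 held 1 match, ACGTG, whose first base lies at -93 on this count, and Adamts1 held 1 match, GCGTG, at -158. The windows of Thbs2, Thbs3 and Vash1 held none of these letters. A match is frequent at this length, with 61.9% of the 11616 promoters of tested genes and 43.77% of all 32851 promoters holding at least 1, so the matches describe the sequence and name no bound site.

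Hif1a checked the knockdown. Its normalized counts, the reads of a gene divided by a factor for each library, were 6914, 5424 and 4945 in Mock, against 697.3, 3142 and 1928 after knockdown, without overlap. Replicate 1 of HIF-1α-KD held the least and replicate 2 the most. The log2 fold change of Hif1a was -1.82 (SE 0.46), with an adjusted p-value of 0.219 in limma, 0.248 with edgeR and 0.147 with DESeq2. In limma it was 0.0908 to 0.521 with each library left out. Of 9 genes known to be induced by HIF, all 9 had lower counts in HIF-1α-KD cells without overlap of the groups, as were 8.75% of all genes tested, and 6 of them passed an adjusted p of 0.05 (limma, Benjamini-Hochberg). Over all 12014 genes, 47 (0.391%) had an adjusted p-value under 0.05, 1 higher and 46 lower. Reads on genes ran from 19845852 to 30809138 per library. HIF-1α-KD replicate 1 differed most from the other libraries of its group, with a root mean square log2 difference of 0.69 against 0.40 to 0.58 in the other 5 libraries. Markers of epithelium, which a colon adenocarcinoma would hold, were near 0, with a summed FPKM (fragments scaled to gene length and depth) over 10 genes of 1.41 to 3.39 in 5 libraries and 16.1 in Mock replicate 3, and at most 2 reads of Cdx2, the intestinal transcription factor. Whether all sorted GFP+ cells were tumor cells was not tested. Endothelial markers summed to between 7.13 and 10.6 FPKM over 12 genes, most of it from Cdh5, the cadherin of endothelial cells, and Eng, a TGF-β coreceptor. Cdh5 had 343, 556 and 471 reads in Mock, against 355, 330 and 171 after knockdown (log2 fold change -0.84, adjusted p = 0.294 in limma), and Eng had 74 to 202 reads (0.68, adjusted p = 0.407 in limma). Kdr, the VEGF receptor 2, had no more than 10 reads and Cldn5 no more than 1 read.

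Serpinf1 (ENSMUSG00000000753, build GRCm38, chromosome 11, 75409769 to 75422701, minus strand) was the most abundant of the members per length and the only 1 of the tested members whose groups did not overlap. Its normalized counts were 4487, 4546 and 3181 in Mock, against 10210, 8095 and 8235 after knockdown. Each HIF-1α-KD library lay above every Mock library, with Mock replicate 3 lowest and HIF-1α-KD replicate 1 highest. The mean went from 4071 ± 772 (SD, n = 3) in Mock to 8847 ± 1183 (SD, n = 3) after knockdown, and the fitted log2 fold change of 1.13 (SE 0.18) is a fold of 2.19 with a 95% interval of 1.65 to 2.91. Of the 5 tested members, 1 had an adjusted p-value under 0.05 in limma, as did 0.391% of all genes tested. Of these members, 1 was higher without overlap of the groups, as were 10.4% of all genes tested. Since Serpinf1 was chosen for this difference, nothing is read from these counts against the background.

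The size of the Serpinf1 difference moved little with the libraries and settings, whereas its adjusted p-value depended on the test and rose whenever a library was left out. Leaving out each library gave Serpinf1 a log2 fold change of 0.96 to 1.22 and an adjusted p-value in limma of 0.0828 to 0.131, above 0.05 whichever library was missing. The number of genes called over all genes in limma fell too, from 47 to between 0 and 38. Other tests, scalings, filters and pseudocounts gave log2 fold changes of 1.10 to 1.19. Among these settings, the adjusted p-value of Serpinf1 rose above 0.05 with the edgeR quasi-likelihood test (0.0536) and with a block for replicate number in limma (0.0727), and was 9.7e-06 with DESeq2, which called 2.36% of all genes. Because Serpinf1 was chosen by its adjusted p-value, these values describe that call and are no test of the difference.

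In level per length, Serpinf1 was among the more abundant genes, at percentile 93.7 to 98.3 of the tested genes. Its FPKM was 211.3, 228.6 and 150.4 in Mock, against 497.6, 410.8 and 419.2 after knockdown, which put it at rank 460 to 754 of all genes in Mock and at rank 204 to 250 in HIF-1α-KD libraries. Among the serpins, Serpinf1 ranked at place 3 in each Mock library and at place 2 in each HIF-1α-KD library. It made up 17.7%, 18.4% and 10.4% of the summed serpin FPKM in Mock, against 22.5%, 23.7% and 28.0% after knockdown. These ranks and shares restate the same counts relative to other genes. Like the percentile, they rest on the deposited width, which for Serpinf1 is 828 bases, where the longest annotated transcript has 1832.

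**Figure D1:**
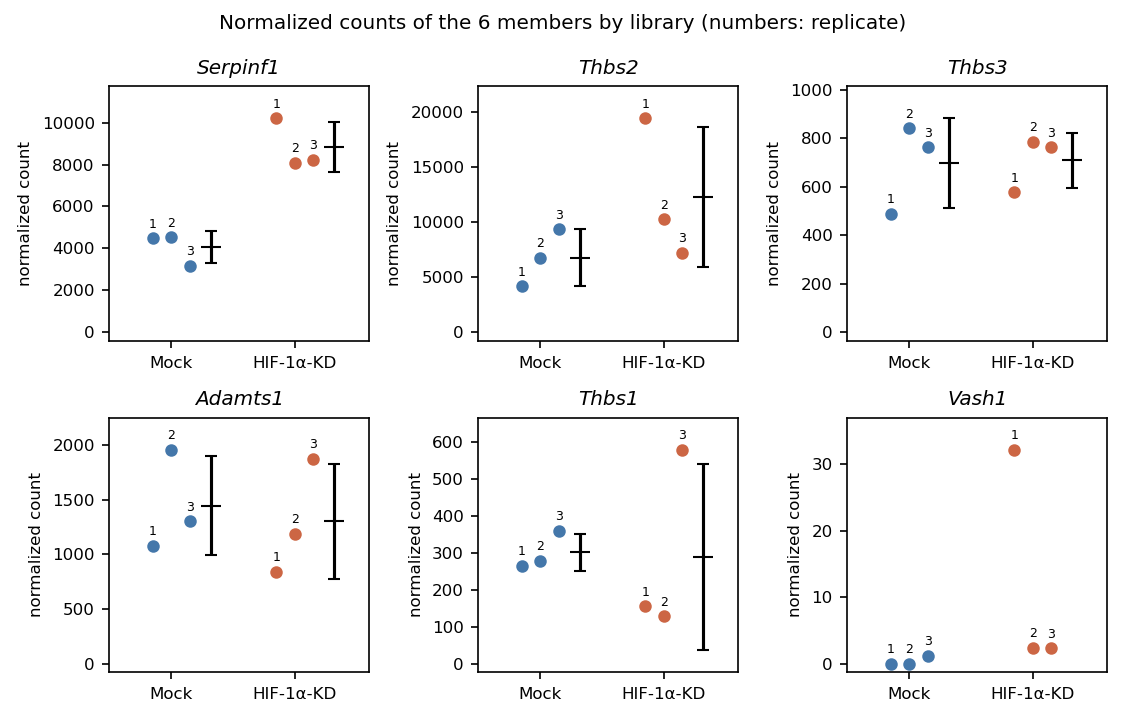
Normalized counts (y axis, linear, a scale for each gene) of the 6 members in the 3 Mock (blue) and 3 HIF-1α-KD libraries (orange), with replicate numbers beside the points. Bars give the mean ± SD of each group and were left out for Vash1, which had 0 to 40 reads. The groups are apart for Serpinf1, overlap for Thbs2, Thbs3, Adamts1 and Thbs1, and differ for Vash1 mainly by HIF-1α-KD replicate 1.

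Thbs2 (ENSMUSG00000023885, chromosome 17, 14665500 to 14694235, minus strand) encodes thrombospondin 2, a matrix protein best known from fibroblasts. Its normalized counts were 4172, 6776 and 9368 in Mock, against 19410, 10240 and 7221 after knockdown. The groups overlapped, since HIF-1α-KD replicate 3 lay below Mock replicate 3. Thbs2 averaged 6772 ± 2598 (SD, n = 3) in Mock against 12290 ± 6348 (SD, n = 3) after knockdown, so the gap between the means was within the spread of the HIF-1α-KD libraries. The fitted log2 fold change was 0.81 (SE 0.38), with a 95% interval of -0.06 to 1.69 that spans 0. Without HIF-1α-KD replicate 1, the library that differed most from its group, the log2 fold change of Thbs2 was 0.42, and without Mock replicate 1 it was 0.50, whereas leaving out HIF-1α-KD replicate 3 raised it to 1.13.

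Thbs1 (ENSMUSG00000040152, chromosome 2, 118111876 to 118127133, plus strand) encodes thrombospondin 1, which platelets, macrophages and many other cells release. Its normalized counts were 265.9, 279.4 and 360.0 in Mock, against 156.8, 129.5 and 579.9 after knockdown. HIF-1α-KD replicates 1 and 2 lay below all Mock libraries and replicate 3 lay above them, so the groups overlapped. Thbs1 averaged 302 ± 50.9 (SD, n = 3) in Mock against 289 ± 253 (SD, n = 3) after knockdown. Its log2 fold change of -0.39 (SE 0.50) had a 95% interval of -1.53 to 0.75, and it was -1.06 without HIF-1α-KD replicate 3 and 0.01 without HIF-1α-KD replicate 2. The Thbs1 value thus depended on which HIF-1α-KD libraries were included.

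The macrophage genes among the leukocyte markers, with Lyz2 the most abundant, were highest in the HIF-1α-KD library in which Thbs1 stood apart. The summed FPKM of 15 leukocyte markers was 185, 201 and 200 in Mock, against 108, 134 and 590 after knockdown, highest in replicate 3. None of these markers was at 0 in all libraries, although the sort was gated on cells lacking CD45. Ptprc, which encodes CD45, had 91, 93 and 98 reads in Mock, against 50, 49 and 193 reads after knockdown. Of 13 leukocyte markers tested, 11 had a log2 fold change below 0. None had an unadjusted p-value under 0.05 in limma, where 7.04% of all genes were higher and 5.69% lower. Lyz2, a lysozyme of macrophages and neutrophils, had 72.0, 77.7 and 80.6 FPKM in Mock, against 54.5, 62.9 and 294.6 after knockdown. The B cell gene Cd79a went the other way, with 8.05, 9.01 and 4.28 FPKM in Mock, against 5.16, 6.45 and 3.44 after knockdown, and the T cell gene Cd3e and the neutrophil gene Ly6g had 0 reads in HIF-1α-KD replicate 3. The platelet markers did not move together, since Pf4, a chemokine of platelets, had 10.1 FPKM in HIF-1α-KD replicate 3 and 1.72 to 4.76 elsewhere, whereas Gp1bb, a platelet glycoprotein, had 12.4 FPKM there and 11.8 to 15.4 elsewhere, and the sum over 6 markers was 15.6 to 23.7. The part of these markers in the Thbs1 values was not tested. In bulk samples such as these, fewer cells of a type and less RNA per cell cannot be told apart.

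Thbs3 (ENSMUSG00000028047, chromosome 3, 89215180 to 89226837, plus strand) encodes thrombospondin 3, the member without type 1 repeats. Its normalized counts were 490.0, 842.1 and 764.6 in Mock, against 578.3, 786.6 and 764.7 after knockdown. The libraries of the groups lay among each other, with replicate 1 lowest in each. Thbs3 averaged 699 ± 185 (SD, n = 3) in Mock against 710 ± 114 (SD, n = 3) after knockdown, a log2 fold change of 0.05 (SE 0.24) with a 95% interval of -0.49 to 0.59. The whole of Thbs3, 11658 bases, is overlapped on the opposite strand by Mtx1, a mitochondrial outer membrane protein gene. Mtx1 had 703, 1049 and 867 reads in Mock, against 1305, 917 and 848 reads after knockdown. The library kit marks strand, but the strand setting of the counting is not given in the sources used here, so the Thbs3 counts are uncertain to that extent.

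Adamts1 (ENSMUSG00000022893, chromosome 16, 85793827 to 85803113, minus strand) had normalized counts of 1082, 1959 and 1302 in Mock, against 842.9, 1192 and 1875 after knockdown. The groups overlapped, with HIF-1α-KD replicate 1 lowest and Mock replicate 2 highest. This protease gene averaged 1448 ± 456 (SD, n = 3) in Mock against 1303 ± 525 (SD, n = 3) after knockdown. Its log2 fold change of -0.18 (SE 0.31) had a 95% interval of -0.89 to 0.53 and was -0.48 to 0.09 with each library left out in turn.

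Vash1 (ENSMUSG00000021256, chromosome 12, 86678700 to 86692091, plus strand) was close to undetected. It had 0, 0 and 1 reads in Mock, against 40, 2 and 2 reads after knockdown. The higher value thus rests on HIF-1α-KD replicate 1, and no fold is given because the Mock libraries and the other HIF-1α-KD libraries are at the floor of the counts. Vash2, the related vasohibin gene, was readily detected, with 237.6, 314.8 and 320.1 normalized counts in Mock, against 605.6, 347.7 and 344.2 after knockdown. Each HIF-1α-KD library of Vash2 lay above the Mock libraries, and its log2 fold change was 0.53 (SE 0.26, adjusted p = 0.447 in limma). Svbp, whose product is the binding partner that vasohibins need for secretion and for their carboxypeptidase activity, is listed under its older symbol Ccdc23 and had 410.5 to 480.5 normalized counts in the 6 libraries. Vash2 and Svbp were singled out after their values were seen.

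**Figure D2:**
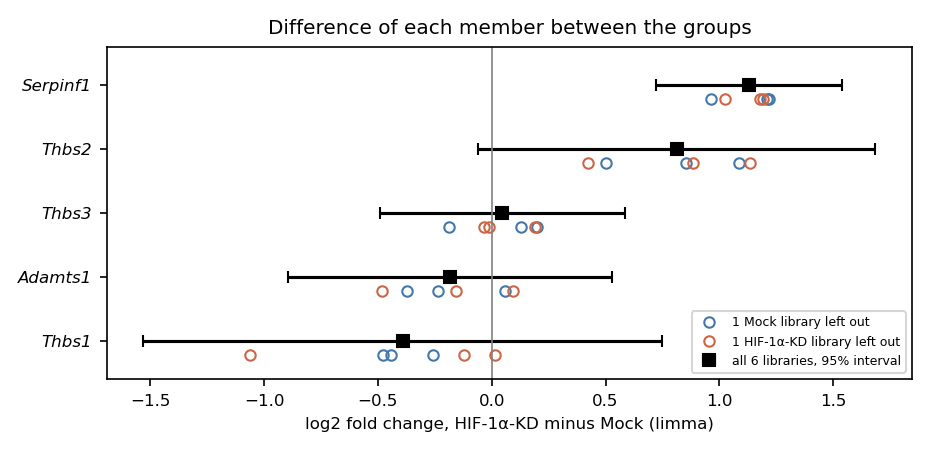
Log2 fold change (x axis, HIF-1α-KD minus Mock, limma) of the 5 members that passed the filter. Squares with bars give the value and 95% interval from all 6 libraries, and open circles give the value with 1 Mock (blue) or 1 HIF-1α-KD library (orange) left out. Serpinf1 stays between 0.96 and 1.22, whereas Thbs1 runs from -1.06 to 0.01 and Thbs2 from 0.42 to 1.13.

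Compared per length, the members fell into an order that was nearly the same in each library. The mean FPKM over the 6 libraries was 319.7 for Serpinf1, 65.6 for Thbs2, 21.3 for Adamts1, 21.0 for Thbs3, 3.71 for Thbs1 and 0.099 for Vash1, where the median tested gene had 12.7 to 14.5. Serpinf1 exceeded Thbs2 in each of the 6 libraries, by 2.43 to 8.15 times. Thbs2 exceeded Adamts1 in each library too, although the lowest Thbs2 value (27.5) lay below the highest of Adamts1 (30.8). With the deposited widths Adamts1 and Thbs3 could not be ordered, since Adamts1 was higher in 3 of 6 libraries. Thbs1, with 1.67 to 7.52 FPKM, stayed below all of these in each library.

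The FPKM depends on the gene width that the authors used. That width was 828 bases for Serpinf1, where the longest annotated transcript has 1832 bases, and 1370 bases for Thbs3, where it has 4034. With the longest transcript in place of the width, the mean FPKM was 144.5 for Serpinf1, 65.9 for Thbs2, 11.5 for Adamts1, 7.14 for Thbs3 and 2.06 for Thbs1. Adamts1 then exceeded Thbs3 in 6 of 6 libraries, so their order depends on the length used. On that scale the ranges of Serpinf1 (68.0 to 224.9) and Thbs2 (27.6 to 132.9) overlapped, with Serpinf1 still the higher in every library. The normalized counts and their differences between groups do not depend on the width.

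**Figure D3:**
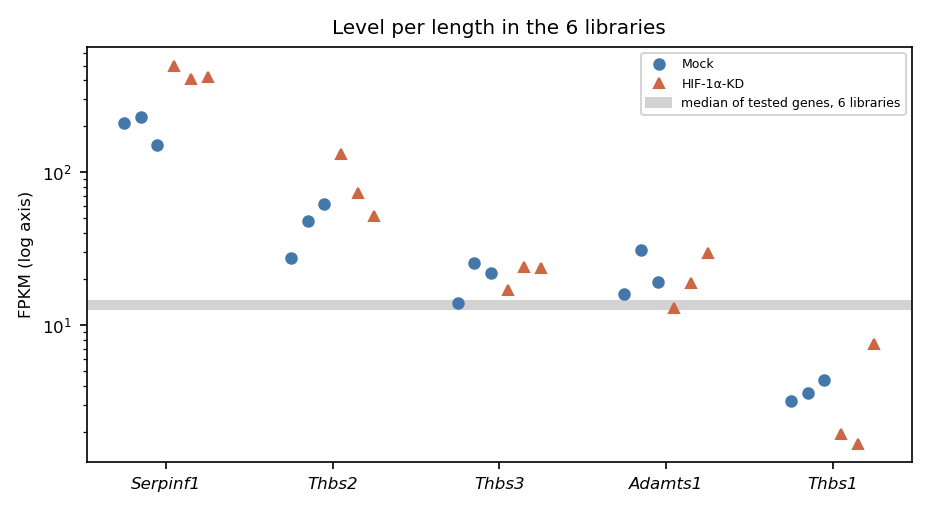
Level per length (y axis, FPKM, log axis) of the 5 members that passed the filter, in 3 Mock (circles) and 3 HIF-1α-KD libraries (triangles). The grey band spans the median of the tested genes in the 6 libraries, 12.7 to 14.5 FPKM. Serpinf1 and Thbs2 lie above the band in every library, Adamts1 and Thbs3 near or above it, and Thbs1 below it.

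Thbs2 was the main thrombospondin transcript of the sorted cells. Over Thbs1, Thbs2, Thbs3, Thbs4 and Comp, which encodes the cartilage oligomeric matrix protein, Thbs2 took 61.4%, 62.0% and 70.2% of the summed FPKM in Mock, against 87.4%, 73.7% and 62.3% after knockdown. Thbs3 took 31.2%, 33.3% and 24.8% in Mock, against 11.2%, 24.5% and 28.5% after knockdown. The shares of both overlapped between the groups. They rest on the deposited widths, and with the longest transcripts, over Thbs1, Thbs2 and Thbs3 alone, Thbs3 took 10.3% to 14.8% in Mock and 4.14% to 12.5% after knockdown, and Thbs2 80.9% to 86.4% and 80.9% to 95.1%. Thbs4 had at most 2 reads and Comp 2 to 7 reads in a library. The ratio of Thbs2 to Thbs1 was 8.61, 13.3 and 14.3 in Mock, against 68.0, 43.4 and 6.84 after knockdown, so HIF-1α-KD replicates 1 and 2 lay above and replicate 3 below the Mock libraries, as they did with the longest transcripts (15.6, 24.1 and 25.8 in Mock, against 122.8, 78.5 and 12.4 after knockdown).

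The spread within a group differed among the members. In HIF-1α-KD libraries the coefficient of variation of the normalized counts was 13.4% for Serpinf1, 16.1% for Thbs3, 40.3% for Adamts1, 51.7% for Thbs2 and 87.5% for Thbs1. In Mock libraries it was lowest for Thbs1 (16.9%), followed by Serpinf1 (19.0%), and highest for Thbs2 (38.4%). Thbs1 thus varied least of the tested members in Mock and most in HIF-1α-KD libraries, with HIF-1α-KD replicate 3 apart from the other HIF-1α-KD libraries. Within the HIF-1α-KD group, replicate 1 held the least Hif1a, the most Serpinf1, Thbs2 and Vash1, and the least Thbs3 and Adamts1.

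The pattern of each member was compared with all tested genes by the root mean square difference of their log2 profiles, each centred on its mean over the 6 libraries. For Serpinf1 the closest genes were Dppa2 (0.12), a gene known from pluripotent cells, Etv1 (0.16), an ETS transcription factor, and Sertad4 (0.19), against a root mean square of 0.60 for Serpinf1 itself. For Thbs2 they were Serpinh1 (0.11), the collagen chaperone HSP47, Kirrel3 (0.13), a cell adhesion molecule, and Slc12a5 (0.16), a potassium chloride cotransporter, against 0.67 for Thbs2 itself. Serpinh1 had 19340, 30870 and 41510 normalized counts in Mock, against 78850, 43480 and 37130 after knockdown, the same order of libraries as Thbs2. For Thbs1 the closest were Laptm5 (0.16), a lysosomal protein of blood cells, C1qc (0.18), a complement C1q chain made by macrophages, and Entpd1 (0.19), the ectonucleotidase CD39, against 0.72 for Thbs1 itself. These likenesses cover 6 libraries and are given as a description.

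**Figure D4:**
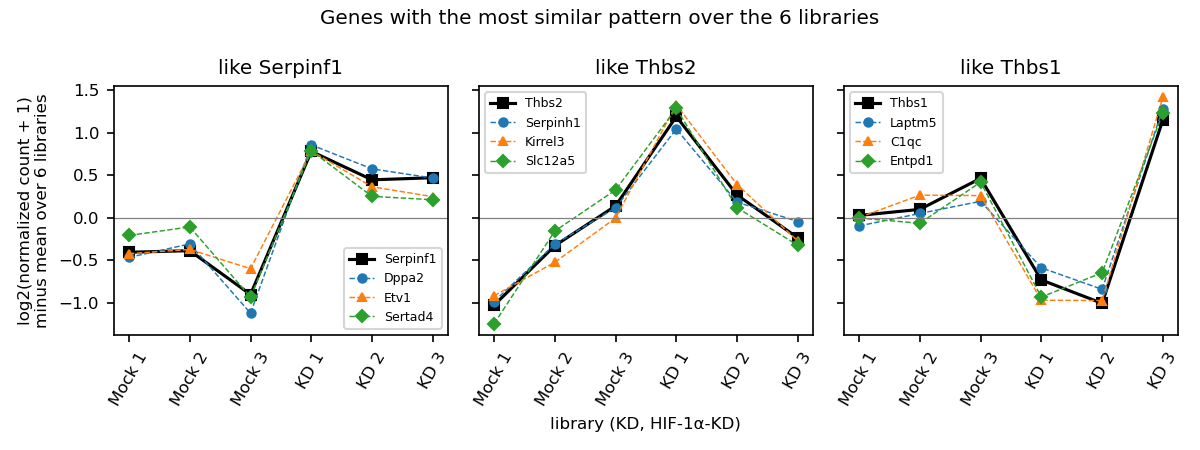
Profiles over the 6 libraries (x axis) of Serpinf1, Thbs2 and Thbs1 (black) and of the 3 genes most like each (coloured), as log2(normalized count + 1) minus the mean of the gene over the libraries (y axis). Serpinf1 and its neighbours are above 0 in the 3 HIF-1α-KD libraries only, Thbs2 and its neighbours peak in HIF-1α-KD replicate 1, and Thbs1 and its neighbours peak in HIF-1α-KD replicate 3.

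Adamts1 was most like Uvssa (0.11), Ptk2b (0.12), a focal adhesion kinase family member, and 1700003E16Rik (0.14), against 0.43 for Adamts1 itself. Thbs3, which varied little, had 387 genes within 0.2 of its profile, led by Dos (0.073), Pml (0.090) and Asb6 (0.094), where Serpinf1 had 5, Thbs1 4, Thbs2 9 and Adamts1 14.

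Some genes of fibroblasts and pericytes, cells that also make Thbs2 and Serpinf1, were abundant in all libraries, led by Col1a1, Col1a2 and Dcn, whereas others were low. The summed FPKM of 13 markers of these cells was 975, 2648 and 2521 in Mock, against 5178, 3747 and 3121 after knockdown, without overlap. Much of that difference came from Col1a1, the type I collagen chain, with 215.7, 1471 and 1035 FPKM in Mock, against 4222, 2530 and 2147 after knockdown. Without Col1a1, the remaining 12 markers summed to 759.5, 1177 and 1486 FPKM in Mock, against 956, 1217 and 973 after knockdown, and the groups overlapped. Of 11 markers tested, 3 were higher and 0 lower before adjustment in limma (p-value under 0.05), where 7.04% of all genes were higher and 5.69% lower, and 0 passed after it in limma, edgeR or DESeq2. The 3 were Col1a1, the pericyte gene Rgs5, which was low (0.259 to 1.12 FPKM) and higher without overlap, and Pdgfrb, a receptor of pericytes and fibroblasts, whose groups overlapped (17.5 to 42.3 FPKM). Pdgfra (19.6 to 48.4 FPKM), Pdpn (63.0 to 126.5 FPKM) and the other markers tested overlapped too. Thy1 (0.056 to 0.408 FPKM) and Pi16 (0.110 to 0.222 FPKM) were near the floor. Fap (0.260 to 3.93 FPKM) and Acta2 (1.40 to 7.80 FPKM) were low. The sort was gated on GFP+ cells, and host fibroblasts and pericytes lack GFP. Leukocyte markers such as Ptprc were read despite the gate on cells lacking CD45. Carry-over of host fibroblasts and pericytes was not tested. The part of these genes in the Serpinf1 and Thbs2 values was not tested.

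Other angiogenesis inhibitors, 47 genes of which 24 were tested, had a median log2 fold change of 0.25, where all tested genes had 0.02. In limma, 2 were higher and 2 lower before adjustment (p-value under 0.05), where 7.04% of all genes were higher and 5.69% lower, and none (0) had an adjusted p-value under 0.05 in limma or edgeR. With DESeq2, 1 higher (Col18a1) and 1 lower (Sema3f) had one, against 2.36% of all genes in either direction. Libraries of the groups were apart for 2 higher and 2 lower genes, against 10.4% and 8.75% of all genes. Hrg, Plg, Serpina3k, Angptl1 and Tnfsf15 were listed at 0 in all libraries.

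Among these inhibitors, Col18a1, whose collagen product yields endostatin, had the smallest p-value, with a log2 fold change of 1.89 (SE 0.36, adjusted p = 0.109 in limma). The study had picked Col18a1, Thbs2 and Timp3 from these same libraries, so their direction is no independent evidence. Sema3f, a secreted semaphorin that binds neuropilins, went the other way, with 252.4, 260.3 and 362.4 normalized counts in Mock, against 120.6, 146.3 and 146.7 after knockdown. All 3 HIF-1α-KD libraries of Sema3f lay below the Mock libraries, and its log2 fold change was -1.06 (SE 0.23, adjusted p = 0.157 in limma). Flt1, the VEGF receptor 1 whose soluble form traps VEGF, had 246.2, 466.0 and 1111 normalized counts in Mock, against 997.3, 970.0 and 1468 after knockdown. Mock replicate 3 of Flt1 lay within the range of the HIF-1α-KD libraries, and the log2 fold change was 1.16 (SE 0.47, adjusted p = 0.375 in limma). That value was 0.64 without Mock replicate 1 and 1.73 without Mock replicate 3. Rnh1, the ribonuclease inhibitor that binds angiogenin, had a log2 fold change of -0.35 (SE 0.15, adjusted p = 0.382 in limma) without overlap.

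The most abundant of the inhibitors were matrix genes whose groups overlapped. Sparc, a collagen-binding matricellular protein, had a mean of 1625 FPKM and a log2 fold change of 0.25, decorin (Dcn) a mean of 552 FPKM and -0.38, and Timp2, an inhibitor of matrix metalloproteinases, a mean of 392 FPKM and 0.07. Their adjusted limma p-values ran from 0.646 to 0.922.

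Receptors and partners of the members were detected in the sorted cells, with 27 of 29 genes tested and a median log2 fold change of 0.04. In limma, 1 was higher and 3 were lower before adjustment (p-value under 0.05), against 7.04% and 5.69% of all genes, and 1 was lower after it, against 0.391% in either direction. That gene was Sdc4, syndecan-4, a heparan sulfate proteoglycan of the cell surface that binds thrombospondin 1. Its normalized counts were 6778, 5891 and 7705 in Mock, against 3662, 3336 and 3796 after knockdown. Each HIF-1α-KD library of Sdc4 lay below every Mock library, and the log2 fold change was -0.91 (SE 0.15, adjusted p = 0.0447 in limma). The adjusted p-value of Sdc4 was 0.0826 to 0.195 with each library left out in turn, 0.0501 with edgeR, 0.0519 in limma after scaling by library size and 0.109 in limma with the replicate block, so the call was lost under these settings. It held in limma with TMM scaling (adjusted p = 0.0440), with no filter on low counts (0.0466) and with pseudocounts of 0.1 (0.0459) and 10 (0.0431), and with DESeq2 (adjusted p = 2.99e-05).

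No other receptor or partner passed the test over all genes in limma. Rpsa, a ribosomal protein that also serves as a laminin and PEDF receptor, had a log2 fold change of -0.44 (SE 0.15, adjusted p = 0.312 in limma) without overlap. Cd47, the thrombospondin 1 receptor that also signals to SIRPα on phagocytes, had -0.34 (SE 0.14, adjusted p = 0.384 in limma), again without overlap. Cacna2d1, a calcium channel subunit bound by thrombospondins, had 2095, 1714 and 2176 normalized counts in Mock, against 3335, 3235 and 2195 after knockdown. Its groups were apart by the narrow gap between Mock replicate 3 and HIF-1α-KD replicate 3, and the log2 fold change was 0.53 (SE 0.19, adjusted p = 0.333 in limma). Pnpla2, the lipase that binds PEDF, had a log2 fold change of 0.04 and Cd36, the receptor of the type 1 repeats, was low with 9.59 to 53.1 normalized counts; both were named after their values were seen. By level, Atp5b, a subunit of ATP synthase found at the surface of endothelial cells as a PEDF-binding protein, and calreticulin (Calr), the partner through which thrombospondin 1 acts on Lrp1, led with Rpsa at means of 2523, 1508 and 1576 FPKM, and had log2 fold changes of -0.08 for Atp5b and 0.10 for Calr.

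**Figure D5:**
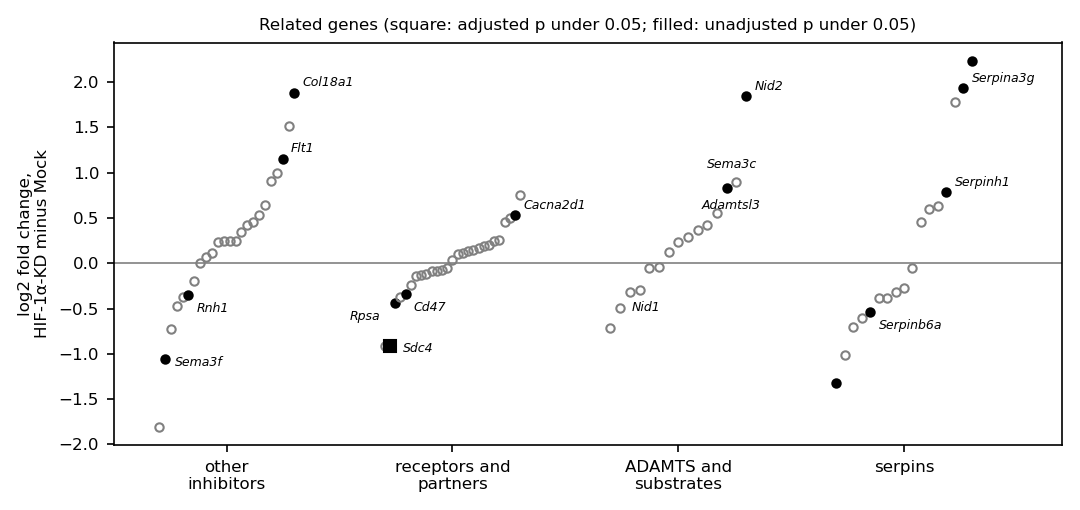
Log2 fold change (y axis, HIF-1α-KD minus Mock, limma) of the tested genes of 4 lists (x axis), ordered by value within a list. Filled symbols have an unadjusted p-value under 0.05, the square, Sdc4, an adjusted p-value under 0.05, and the genes with small p-values that the text describes are named. Values lie on both sides of 0 in each list, from -1.80 for Timp3 to 2.24 for Serpina3f.

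ADAMTS proteases, ADAMTS-like genes and substrates of ADAMTS1 numbered 31 genes, of which 15 were tested, with a median log2 fold change of 0.24. Before adjustment, 2 of the 15 were higher and 0 lower in limma (p-value under 0.05), both without overlap, where 7.04% of all genes were higher by that p and 10.4% higher without overlap. None (0) had an adjusted p-value under 0.05 in limma or edgeR, and 2 (Nid2 and Adamtsl3) had one with DESeq2, against 2.36% of all genes. Nid2, nidogen 2 of the basement membrane, had 124.3, 595.2 and 193.3 normalized counts in Mock, against 780.2, 825.0 and 1042 after knockdown. Mock replicate 2 of Nid2 stood closer to the HIF-1α-KD libraries than to the other Mock libraries, and the log2 fold change was 1.85 (SE 0.49, adjusted p = 0.238 in limma). It was 2.49 without Mock replicate 2 (adjusted p = 0.0432 in limma) and 1.36 without Mock replicate 1 (adjusted p = 0.499 in limma). Adamtsl3, an ADAMTS-like gene without the protease domain, had 430.9, 604.8 and 610.0 normalized counts in Mock, against 1272, 836.9 and 838.6 after knockdown. Its groups did not overlap, and the log2 fold change was 0.83 (SE 0.23, adjusted p = 0.245 in limma). Sema3c, a semaphorin that ADAMTS1 cleaves, had a log2 fold change of 0.90 (SE 0.44, adjusted p = 0.442 in limma) with overlap, and of 0.50 to 1.31 with each library left out. Nid1, nidogen 1, had -0.29 (SE 0.17, adjusted p = 0.528 in limma), so the values of the nidogens had opposite signs. Versican (Vcan), a main substrate of ADAMTS1, had a mean of 109 FPKM and a log2 fold change of 0.24, and Adamts14, a procollagen protease, a mean of 24.5 FPKM and 0.37, both with overlap. The value of Adamts14 was -0.14 without Mock replicate 1, 0.87 without Mock replicate 3 and 0.12 with edgeR, so its direction rested on the Mock libraries included.

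The serpin family apart from Serpinf1 held 60 genes, of which 17 were tested and 20 were at 0 reads in all libraries. The tested serpins had a median log2 fold change of -0.28, with 3 higher and 2 lower before adjustment in limma (p-value under 0.05), where all genes gave 7.04% and 5.69%. After adjustment 0 passed in limma or edgeR and 1 did with DESeq2, against 2.36% of all genes. Serpinh1, whose values are given above, had a log2 fold change of 0.79 (SE 0.34, adjusted p = 0.388 in limma) with overlap, and of 0.46 to 1.04 with each library left out. Serpina3g had 1.94 (SE 0.61, adjusted p = 0.291 in limma) and Serpinb6a, an intracellular protease inhibitor, had -0.54 (SE 0.21, adjusted p = 0.347 in limma), both with overlap. Serpina3g belongs to a cluster of closely related mouse genes among which the counting could split reads. Its sequence was not searched for shared stretches, so its value is uncertain. The log2 fold change of Serpina3g was 1.31 without HIF-1α-KD replicate 2 and 2.54 without Mock replicate 3. For the 6 members, which were searched, none of the 50-base stretches of the longest transcripts occurred in another annotated gene.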

How the data were processed

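The 6 libraries of sorted MC-38GFP cells, 3 per group, were assigned by the knockdown in their labels. The authors used STAR for alignment, featureCounts for counting and DESeq2 for testing, per the methods. These give GRCh38, a human assembly, whereas the submitters' processing notes name GRCm38 and the genes carry mouse Ensembl identifiers. The processing notes also name edgeR, which the methods do not.

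The deposited normalized counts are a signal for which the authors divided reads by a factor per library. The authors also deposited FPKM, computed with their gene width in bases, and the GC content as a fraction, which was not used. Columns of the authors' own comparison (log2 ratio, p-value, false discovery rate) were deposited too and were not used. Whole reads were recovered from the normalized counts: 100% of values up to 300 reads were whole within 0.02 reads or 0.06%. These give the depth. The 95% intervals are those of limma and cover the spread between libraries.

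Genes were kept by filterByExpr of edgeR 4.0.16 on recovered reads (by group, minimum count of 10), leaving 12014. The main comparison was limma 3.58.1, trended by mean expression, on log2(normalized count + 1), two-sided, with Benjamini-Hochberg adjustment over all tested genes. Fold changes are on that scale and understate those of low genes. Alternatives were the edgeR quasi-likelihood test and DESeq2 1.42.0 on recovered reads, TMM and library size scaling, no filter, pseudocounts of 0.1 and 10, a replicate block and leaving out each library. FPKM with the longest transcript was added after the data were seen.

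The members, lists and tests were chosen with earlier results of these data known, and the lists were written from general knowledge. Named in each list were the genes at an adjusted p-value under 0.05, the 4 with the smallest p-value and the 3 with the highest mean FPKM, apart from a gene that is not reported here. For each member, the 3 genes with the most similar profile were named. Hspg2 and Adamts8 stand in more than 1 list, as do some serpins, and Dcn and Pf4 are also among the cell type markers. Positions come from GENCODE M21 of GRCm38, which matched 22570 of 22880 identifiers, and promoter sequences from RefSeq. The tests were checked on simulated data. R 4.3.3, Python 3.11.15, pandas 2.3.3, numpy 2.4.6 and matplotlib 3.10.9 were used.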

Additional observations from a re-analysis of the deposited data

How the results depend on the processing

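The log2 fold changes of the 5 tested members moved by less than the SD between libraries, pooled over the groups, under all alternatives, although signs changed where values were near 0. For Thbs1 that SD rests on HIF-1α-KD replicate 3, and without it the value moved by more than the SD of the Mock libraries (0.23 on the log2 scale). Thbs3 was -0.19 to 0.20 and Adamts1 -0.48 to 0.09 with each library left out, and Thbs3 was -0.00047 with edgeR. Thbs1 was -1.06 to 0.01 with each library left out, -0.09 with edgeR and -0.07 with DESeq2.

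The number of genes with an adjusted p-value under 0.05, 47 in limma, was 47 with edgeR, 283 with DESeq2 and 0 to 38 with each library left out (0 without Mock replicate 3 or HIF-1α-KD replicate 2, where 1444 and 1069 had an unadjusted p-value under 0.05). With a block for replicate number it was 0 in limma, with 1324 genes at an unadjusted p-value under 0.05. The numbers do not show a pairing, since same-numbered libraries had correlations of their deviations from the group means of -0.14, -0.12 and 0.02.

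Genes at an unadjusted p-value under 0.05 numbered 7 of the other inhibitors with DESeq2 (4 in limma) and 3 of the serpins with TMM scaling (5 in limma). With each library left out they numbered 3 to 7 of the other inhibitors, 1 to 5 of the receptors and partners, 2 to 4 of the ADAMTS list and 1 to 6 of the serpins. Col18a1, Sema3f, Nid2 and Adamtsl3 had an adjusted p-value under 0.05 with DESeq2 alone, apart from Nid2, which had 0.0432 in limma without Mock replicate 2. The causes were not tested.

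Vash1, Thbs4 and Comp had too few reads for a comparison at this depth. With 3 libraries per group the intervals of Thbs1, Thbs2, Thbs3 and Adamts1 leave room for changes in either direction.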
